A study of Mus musculus with 2 samples.

Results

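The transcripts of 36 ribosome biogenesis factors were compared between 2 single-cell RNA libraries of mouse embryoid bodies, clumps of embryonic stem cells grown in suspension as they leave the pluripotent state. The 36 genes were taken by symbol from a given list. All 36 were found among the 33670 gene symbols of the files, and all 36 were among the 8817 genes with at least 5 CPM (a gene's UMI count scaled to a fixed library total) in 1 or both libraries. Both libraries came from J1 cells, a male embryonic stem cell line, and the embryoid bodies had been given the solvent DMSO in 1 group and dTAG13 in the other, for 2 days. dTAG13 leads to the degradation of proteins that carry a matching FKBP12 variant tag. The series title names Tex10, but the labels do not say which protein is tagged, whether the DMSO cells carry the same tag, or whether the line is a single clone. Each group was 1 library, so no difference given here could be checked against replicates. Intervals in brackets are at 95% and cover counting error only.

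A ribosome is built in the nucleolus. RNA polymerase I (Pol I) makes a long precursor RNA, small nucleolar RNPs (snoRNPs) guide the chemical modification of that RNA and take part in its cleavage, and separate sets of assembly factors turn its parts into the small and the large subunit. Pluripotent cells divide fast and keep this pathway active. When assembly is disturbed, free ribosomal proteins such as Rpl5 and Rpl11 bind Mdm2, the ubiquitin ligase of p53, and p53 becomes stable. The Tex10 complex acts late in the maturation of the large subunit. The members were sorted by role into 3 Pol I factors, 3 abundant nucleolar proteins with several roles, 8 snoRNP proteins, 8 small-subunit factors and 14 large-subunit factors.

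The DMSO library held 17878 kept cells and 117189816 UMIs, and the dTAG13 library 11588 cells and 91808969 UMIs. The dTAG13 cells were deeper (medians of 7072.5 against 6014 UMIs) and had a lower mitochondrial share (medians of 1.97% against 2.48%). Of the barcodes, 64 were seen in both libraries. The 9 pluripotency markers were all above 5 CPM and summed to 10141 CPM with DMSO and 9008 CPM with dTAG13, while the 6 endoderm markers summed to 1.66 and 2.64 CPM. Keratin transcripts summed to 27.6 and 88.8 CPM over 4 genes, and trophoblast markers to 184 and 145 CPM over 9 genes, of which 4 reached 5 CPM. Fibroblast feeder markers summed to 34.8 and 88.2 CPM over 6 genes, of which 2 reached 5 CPM, with Col3a1 at 0. The feeder list holds Acta2 and Tagln, which are among the leading genes of clusters 9 and 8 described below. Its sum therefore need not mark feeder cells. Whether depth or these cell types take part in the differences below was not tested.

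As a whole the list differed little between the libraries, but its classes did not move alike. The median log2 ratio of CPM (dTAG13 over DMSO) was -0.04 over the 36 members and 0.09 over all 8817 genes. It was 0.17 for the small-subunit factors and -0.12 for the large-subunit factors, with 0.07 for the snoRNP proteins, 0.02 for the Pol I factors and -0.14 for the nucleolar proteins. The small-subunit median thus lay 0.29 above the large-subunit median, a gap that does not depend on the scaling of the libraries. Of the members, 16 had a ratio above 1 and 20 a ratio below 1, against 60.3% and 39.7% of all genes. A ratio of 1.2-fold or more in the higher direction was seen for 3 members (32.9% of all genes) and in the lower direction for 5 (16.8% of all genes). A change of 1.5-fold was reached by 1 member, Utp20, in the higher direction (14.2% of all genes) and by 0 members in the lower direction (5.40% of all genes). When the libraries were scaled by the median of ratios over genes, the median of all genes moved from 0.09 to -0.06, and 8 members had a ratio above 1 (43.8% of all genes) and 28 a ratio below 1 (56.2% of all genes); by 1.2-fold or more, 1 member was higher (21.9% of all genes) and 12 were lower (28.8% of all genes).

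**Figure D1:**
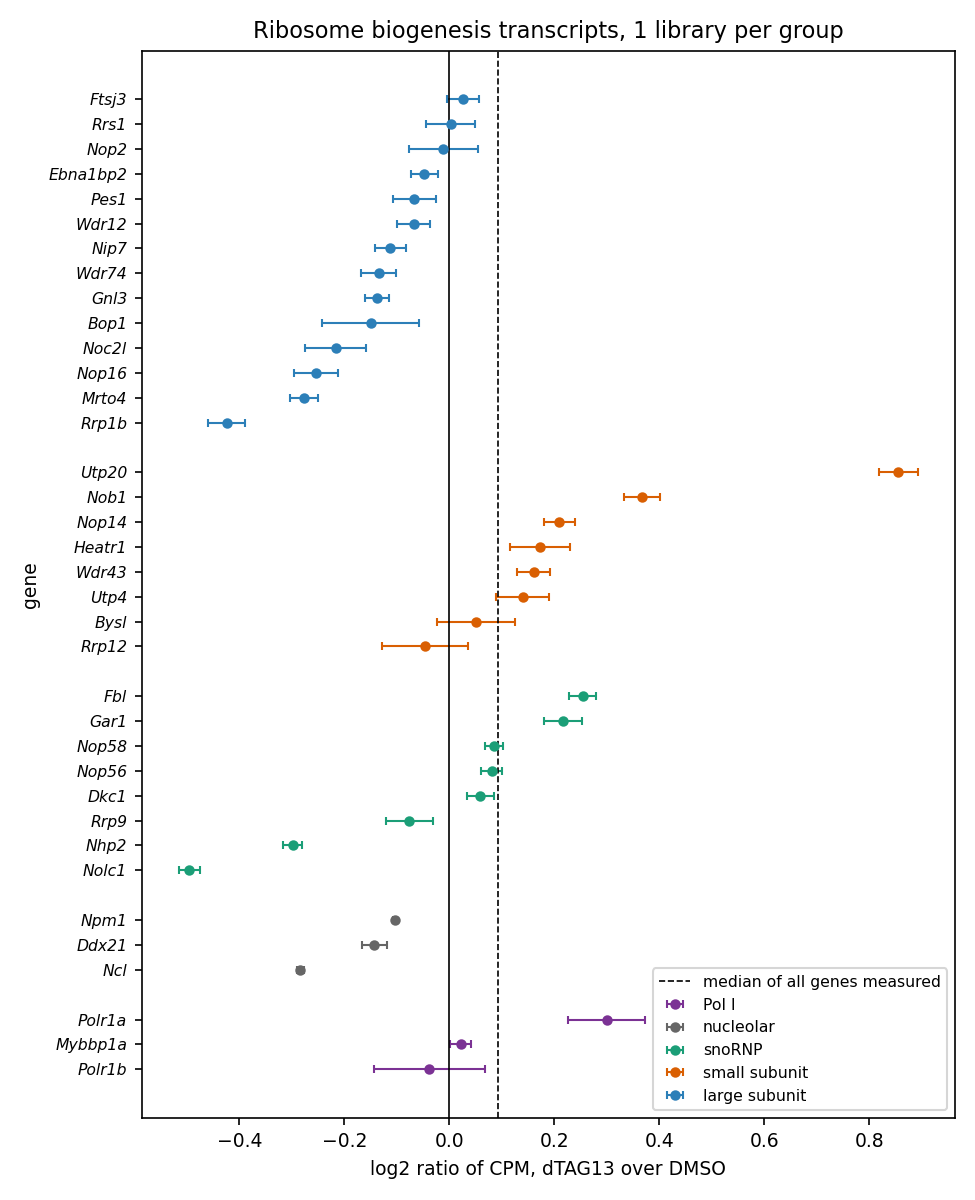
Log2 ratio of CPM, dTAG13 over DMSO, for each of the 36 members, sorted by class; bars are 95% counting intervals, the solid line marks equal CPM and the dashed line the median of all genes measured (0.09). Utp20 (0.85) lies far to the right of the other small-subunit factors, and 12 of 14 large-subunit factors lie left of the solid line (39.7% of all genes have a ratio below 1).

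The small-subunit factors act on the early precursor, in the large particle known as the small-subunit processome, or in the late steps that follow. Of these 8 factors, 7 had a higher CPM with dTAG13 (60.3% of all genes) and 6 had a counting interval above 1 (51.6% of all genes). Apart from Utp20 and Nob1, their ratios lay between percentile 34.8 (Rrp12) and percentile 61.9 (Nop14) of all genes. Utp20 (ENSMUSG00000004356), a large scaffold protein of the processome, was at 84.4 CPM (82.7 to 86.1) with DMSO and 153 CPM (150 to 155) with dTAG13, a ratio of 1.81 (1.76 to 1.86). This was the highest ratio among the members, above that of 92.0% of all genes. Nob1 (ENSMUSG00000003848), the nuclease that makes the last cut of the small-subunit RNA, was at 121 and 156 CPM, a ratio of 1.29 (1.26 to 1.32). Nop14, a processome protein, was at 168 and 194 CPM, a ratio of 1.16 (1.13 to 1.18). The members that link the processome to Pol I transcription, Heatr1, Wdr43 and Utp4, had closely similar ratios of 1.13, 1.12 and 1.1. Bysl, an assembly factor of late small-subunit precursors, was at 28.1 and 29.1 CPM, and Rrp12, which works in nuclear export of the precursors, at 23.8 and 23.0 CPM; for both, the counting interval of the ratio included 1. Without Utp20 the other 7 factors had a median log2 ratio of 0.16 and their summed CPM went from 584 to 674, so the class difference did not rest on that gene. After scaling by the median of ratios the class median was 0.01 and 5 of the 8 ratios were above 1 (43.8% of all genes). The direction of the class median against 0 thus depends on the scaling, while its place above the median of all genes, 0.07 by either scaling, does not.

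The large-subunit factors pointed the other way. Of 14, 12 had a lower CPM with dTAG13 (39.7% of all genes) and 11 had a counting interval below 1 (32.1% of all genes). With the median of ratios all 14 ratios were below 1 (56.2% of all genes). Rrp1b (ENSMUSG00000058392), a nucleolar protein of large-subunit precursors, was at 151 CPM (149 to 153) with DMSO and 112 CPM (110 to 115) with dTAG13, a ratio of 0.746 (0.728 to 0.764). Mrto4, which holds the place of the stalk protein P0 on the precursor, was at 232 and 191 CPM, a ratio of 0.825 (0.810 to 0.841). Nop16 was at 96.6 and 81.0 CPM, a ratio of 0.839 (0.814 to 0.864). These members with the lowest ratios stood below the median of the class. At its upper end, Ftsj3, an RNA methyltransferase of the precursor, was at 166 and 169 CPM, Rrs1, which helps to place the Rpl5 and Rpl11 particle, at 72.8 and 72.9 CPM, and Nop2, another RNA methyltransferase, at 36.6 and 36.3 CPM. For each of these the counting interval of the ratio included 1. Pes1, Bop1 and Wdr12, which work as 1 complex, were all slightly lower, with ratios of 0.955, 0.901 and 0.954. The other members of the class, Noc2l, Gnl3 (nucleostemin, abundant in stem cells), Wdr74, Nip7 and Ebna1bp2, had ratios of 0.861, 0.909, 0.911, 0.925 and 0.968.

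**Figure D2:**
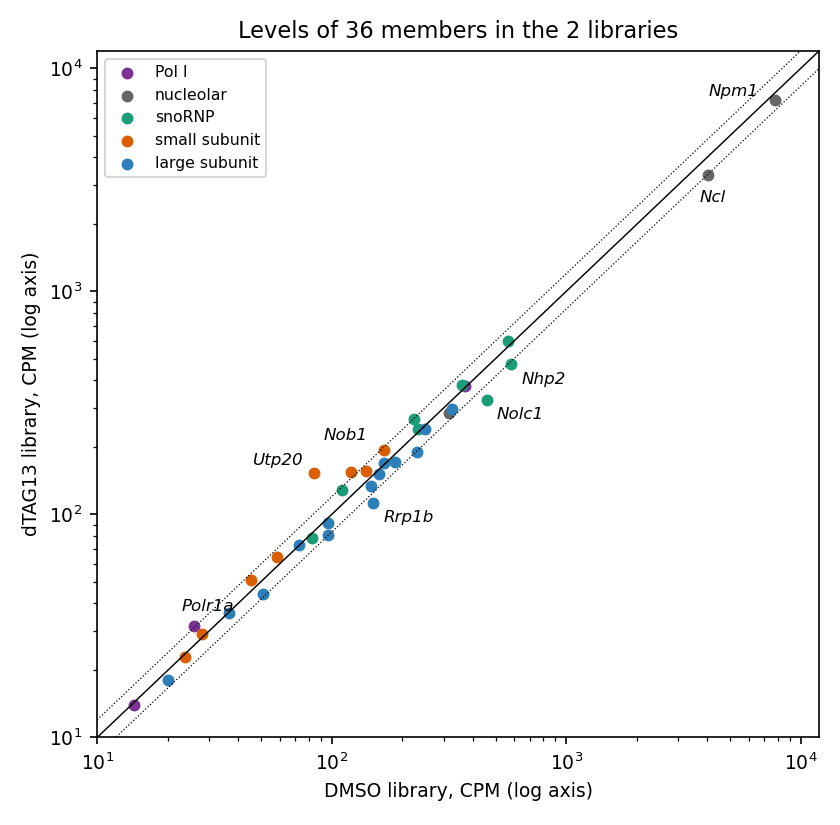
CPM of each member in the DMSO library (horizontal) against the dTAG13 library (vertical), both on log axes; the solid line marks equal CPM and the dotted lines a 1.2-fold difference. The 3 members above the upper dotted line are Utp20, Nob1 and Polr1a, and the 5 below the lower one are Nolc1, Rrp1b, Nhp2, Ncl and Mrto4.

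The snoRNP proteins were split. Box C/D particles guide ribose methylation. Of 4 members from these particles, 3 had a ratio above 1 (60.3% of all genes), and by the median of ratios only Fbl did. Fbl (fibrillarin, ENSMUSG00000046865), the methyltransferase, was at 225 CPM (223 to 228) with DMSO and 269 CPM (265 to 272) with dTAG13, a ratio of 1.19 (1.17 to 1.21). Its core partners Nop56 and Nop58 were at 360 and 380 CPM and at 565 and 599 CPM, with ratios of 1.06 for both, below the 1.07 that is the median ratio of all genes. Rrp9, which is specific to the U3 particle of the processome, was at 82.3 and 78.1 CPM, a ratio of 0.949 (0.920 to 0.978). The proteins of box H/ACA particles, which guide pseudouridylation, are made as parts of 1 complex, yet their transcripts differed: Gar1 was at 110 and 128 CPM (ratio 1.16, 1.13 to 1.19), Dkc1 (dyskerin), the pseudouridine synthase, at 233 and 243 CPM (ratio 1.04, 1.02 to 1.06) and Nhp2 at 584 and 475 CPM (ratio 0.813, 0.803 to 0.823). Nolc1 (ENSMUSG00000015176), a chaperone of both kinds of snoRNP, was at 458 CPM (454 to 462) with DMSO and 325 CPM (321 to 329) with dTAG13. Its ratio of 0.710 (0.700 to 0.720) was the lowest among the members, at percentile 7.56 of all genes.

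The nucleolar proteins with several roles were all lower with dTAG13. Ncl (nucleolin), a histone and RNA chaperone of rDNA transcription and early processing, was at 4036 CPM (4025 to 4048) with DMSO and 3315 CPM (3303 to 3327) with dTAG13, a ratio of 0.821 (0.817 to 0.825). Npm1 (nucleophosmin), which organises the outer part of the nucleolus, was at 7777 and 7239 CPM, a ratio of 0.931 (0.928 to 0.934). Ddx21, a helicase that joins Pol I transcription to processing, was at 316 and 286 CPM, a ratio of 0.906 (0.892 to 0.920). Ncl and Npm1 supply most of the members' UMIs, so sums over the list follow these genes: the summed CPM had a ratio of 0.920 with them and 0.974 without them. The sources used here do not say how reads from near-identical gene copies were counted, so the Npm1 value is uncertain. Among the Pol I factors, Polr1a, the largest subunit of the polymerase, was at 25.8 and 31.7 CPM, a ratio of 1.23 (1.17 to 1.30). The second-largest subunit gene Polr1b was at 14.4 and 14.0 CPM, a ratio of 0.974 (0.905 to 1.05), and Mybbp1a, a nucleolar protein that also binds p53, at 370 and 375 CPM, a ratio of 1.01 (1.0 to 1.03).

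The other genes of the pathway, from a list of 139 that are not members, were set beside them; 137 reached 5 CPM. Their median log2 ratio was -0.02, with 16 higher (32.9% of all genes) and 24 lower (16.8% of all genes) by 1.2-fold or more. The split between subunits was smaller here: 50 further small-subunit factors had a median of 0.03 and 43 further large-subunit factors one of -0.01, a gap of 0.05 against 0.29 among the members, and with members included the gap was 0.11. Their ratios ran from 0.578 to 1.76, against 0.710 to 1.81 among the members. Zfp593, a large-subunit export factor, was at 84.5 and 48.9 CPM (ratio 0.578), Lyar at 376 and 263 CPM and Cebpz at 212 and 168 CPM, while Brix1 was at 217 and 332 CPM (ratio 1.53), Mak16 at 412 and 555 CPM and Nop53 at 128 and 163 CPM. So large-subunit genes lay at both ends. Among small-subunit genes, Rrp36, the kinase gene Riok3 and Pwp2 had ratios of 1.47, 1.46 and 1.43, and Imp3, Emg1 and Esf1 had ratios of 0.766, 0.816 and 0.828.

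Of the further Pol I genes, Polr1e and the terminator gene Ttf1 had ratios of 1.76 and 1.61 and Rrn3, the initiation factor that joins the polymerase to the promoter, one of 1.2. Tcof1 (treacle), Polr1f and Polr1g had ratios of 0.678, 0.705 and 0.841, so subunits of the same polymerase lay on both sides of 1. The further snoRNP genes had a median of -0.11: Nop10, the last core protein of box H/ACA particles, was at 904 and 565 CPM (ratio 0.625), Snu13 of box C/D particles at 656 and 499 CPM (ratio 0.760) and Ruvbl1 had a ratio of 0.784, against 1.31 for its partner Ruvbl2, 1.12 for Shq1 and 1.03 for Znhit6. The RNA exosome, which trims precursor ends, had a median of -0.11 over 12 measured genes, with Exosc5 and Exosc4 at 0.622 and 0.683, Mphosph6 at 0.792, and Exosc9, Exosc2 and Exosc8 at 1.56, 1.1 and 1.05; Exosc6 had 0 UMIs in both libraries. Tex10 itself was at 81.3 and 64.7 CPM (ratio 0.795). Its complex and the linked rixosome, 7 genes with Tex10 included, had a median of -0.33, which is the value of Tex10. The other genes were split, with Pelp1, Senp3 and Wdr18 at 0.715, 0.727 and 0.764 and Nol9, Mdn1 and Las1l at 1.2, 1.07 and 1.05.

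Genes that host snoRNAs in their introns had a median of 0.04 over 12, with Snhg1, Snhg3 and Gas5 at ratios of 1.41, 1.36 and 1.30 and Snhg6, Snhg9 and Snhg12 at 0.734, 0.745 and 0.781. Over 79 genes of cytosolic ribosomal proteins the median was 0.04, and Rpl5 and Rpl11, which bind Mdm2, had ratios of 1.08 and 1.06. Mdm2, a p53 target as well, was at 45.3 and 364 CPM, and Trp53 at 460 and 456 CPM. Myc, a transcription factor that drives many ribosome biogenesis genes, was low throughout, at 7.37 and 3.22 CPM (ratio 0.437, 0.382 to 0.500), and Mycn, its relative, was at 35.5 and 34.6 CPM.

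Myc and related factors bind the E-box CACGTG, which reads the same on both strands, so promoters were searched for it, together with CCGGAAG (an ETS factor motif), CCAAT and GGGCGG (a GC box), the last 3 on both strands. RefSeq windows (GRCm38.p6, from 250 bases before to 50 bases after the gene's start) were found for 31 of 36 members. None was found for Bop1, Fbl, Npm1, Rrp12 or Rrs1. CACGTG was present for 6 of 31 members (19.4%), against 22 of 114 other genes of the pathway (19.3%), 901 of 7039 measured genes (12.8%) and 2187 of all 27025 genes with a window (8.09%). CCGGAAG was present for 10 members (32.3%, against 43.0% of the other pathway genes, 23.8% of measured genes and 9.93% of all). CCAAT was present for 8 (25.8%, against 39.5%, 44.1% and 41.1%) and GGGCGG for 23 (74.2%, against 64.9%, 71.7% and 38.2%). The stretches of 30 bases around each CACGTG are shown 5′ to 3′, with the motif in capitals.

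Utp20 (chr10:88826765-88826794, minus strand): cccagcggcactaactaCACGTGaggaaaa
Utp4 (chr8:106893643-106893672, plus strand): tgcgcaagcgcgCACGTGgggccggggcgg
Wdr43 (chr17:71616220-71616249, plus strand): cgcccgggcgaaCACGTGgctgccgcggag
Mybbp1a (chr11:72441347-72441376, plus strand): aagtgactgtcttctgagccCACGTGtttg
Pes1 (chr11:3963965-3963994, plus strand): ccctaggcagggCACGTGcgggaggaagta
Nop2 (chr6:125131811-125131840, plus strand): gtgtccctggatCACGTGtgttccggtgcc

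The motif began 60 bases before the start in Nop2 and at base 3, 16, 18, 38 and 41 from the start in Pes1, Utp4, Wdr43, Utp20 and Mybbp1a. These 6 members had a median log2 ratio of 0.08 and the 25 without the motif one of -0.07. With and without a match, the medians were -0.08 and 0.02 for CCGGAAG, -0.01 and -0.04 for CCAAT and -0.05 and 0.12 for GGGCGG. A gap of this size was therefore not particular to CACGTG. The 6 members with CACGTG include 3 of the 8 small-subunit factors, of which Rrp12 had no window. CACGTG and the class thus cannot be told apart in this comparison. The members at the ends of the range, Utp20 and Nolc1, differ in what lies in the 250 bases before the start, shown with all matches to the 4 motifs in capitals.

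Utp20 (chr10:88826815-88827064, minus strand): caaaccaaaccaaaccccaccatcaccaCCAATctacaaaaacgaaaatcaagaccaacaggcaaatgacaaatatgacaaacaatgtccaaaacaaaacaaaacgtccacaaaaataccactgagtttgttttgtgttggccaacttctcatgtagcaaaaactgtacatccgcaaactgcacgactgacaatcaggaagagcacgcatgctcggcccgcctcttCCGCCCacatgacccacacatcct
Nolc1 (chr19:46075597-46075846, plus strand): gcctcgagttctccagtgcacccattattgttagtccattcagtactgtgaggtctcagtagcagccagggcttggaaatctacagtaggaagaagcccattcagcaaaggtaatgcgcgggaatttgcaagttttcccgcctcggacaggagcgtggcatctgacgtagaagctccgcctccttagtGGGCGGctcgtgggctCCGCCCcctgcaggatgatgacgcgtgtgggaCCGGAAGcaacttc

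The Utp20 stretch held 1 CCAAT and 1 GC box match, and the Nolc1 stretch 2 GC box matches and 1 ETS match. A match is only a run of letters and says nothing of binding.

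Cells were then compared one by one, each thinned to 3900 UMIs so that depth was equal; 16123 DMSO and 10815 dTAG13 cells were deep enough, and 1755 and 773 were left out. A DMSO cell held a median of 69 member UMIs (quartiles 61 and 78) and a dTAG13 cell a median of 64 (54 and 73); without thinning the medians were 107 and 116. For the nucleolar proteins the medians were 47 and 42, and 31.2% (30.4 to 32.1) of dTAG13 cells lay above the DMSO median against 48.9% (48.1 to 49.6) of DMSO cells. Small-subunit UMIs had medians of 2 and 3 and means of 2.60 and 3.24, with 61.2% (60.2 to 62.1) of dTAG13 and 47.9% (47.1 to 48.7) of DMSO cells above the DMSO median. Without Utp20 the small-subunit medians were both 2 and the means 2.28 and 2.65. Large-subunit UMIs had a median of 7 in both and means of 7.73 and 7.05. For the summed members the lower end differed more than the upper end: the 5th percentiles were 49 and 39 UMIs and the 95th percentiles 91 and 88. The libraries overlapped widely in every class. The means per thinned cell of single members showed the same: Utp20 had 0.323 UMIs with DMSO and 0.595 with dTAG13, and Nolc1 had 1.78 and 1.26. Free RNA in the droplets may hold a part of these UMIs; no cell type that lacks these genes was at hand to measure it.

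**Figure D3:**
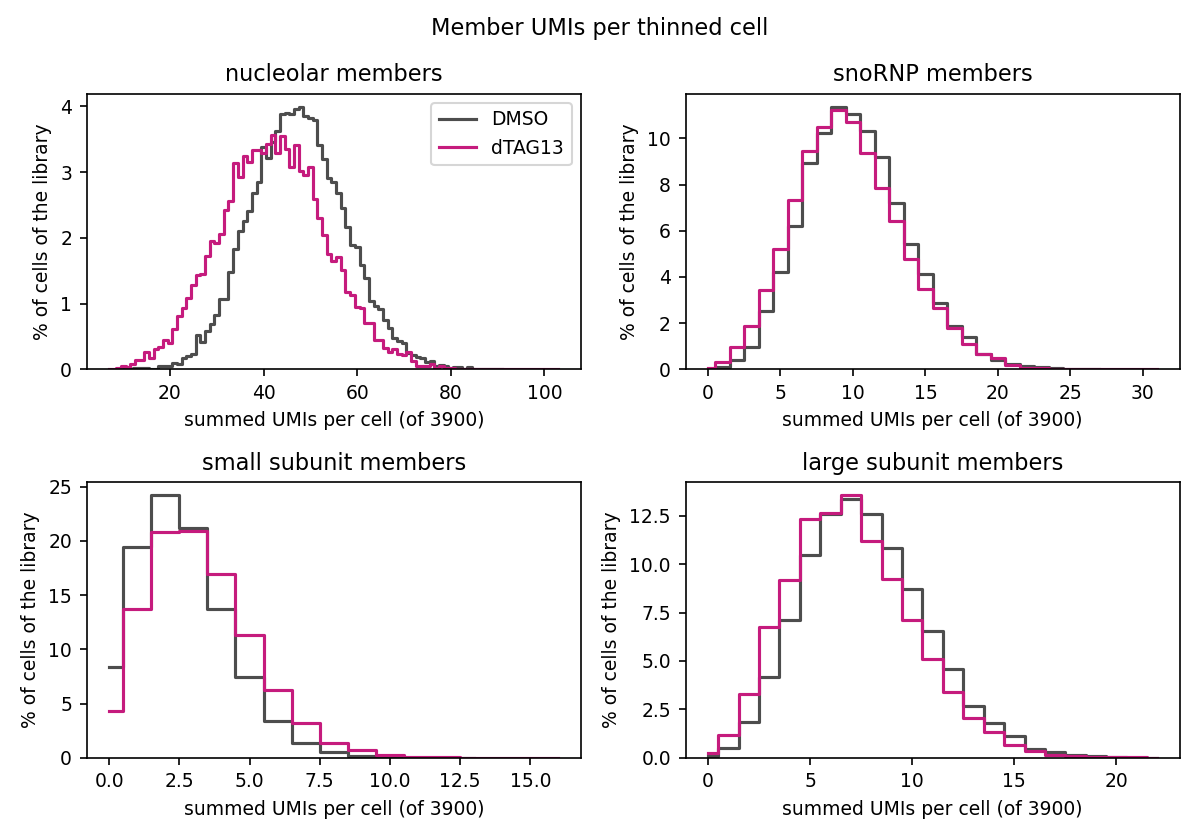
Percent of cells of each library (vertical) with a given number of summed UMIs of a class (horizontal), in cells thinned to 3900 UMIs; grey is DMSO and pink dTAG13. The nucleolar curve of dTAG13 lies to the left (medians of 42 against 47) and its small-subunit curve to the right (means of 3.24 against 2.60).

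The dTAG13 cells were also more uneven. The variance of the member UMIs per thinned cell was 2.34 times the mean with DMSO and 3.41 times with dTAG13, where sampling alone gives about 1; for the nucleolar proteins it was 2.16 and 3.04 times. This measure nears 1 for low counts, so it is not compared between classes. Across cells of 1 library, nucleolar UMIs went with snoRNP UMIs at r = 0.190 over 16123 DMSO cells and r = 0.328 over 10815 dTAG13 cells, and with large-subunit UMIs at r = 0.179 and r = 0.283. With small-subunit UMIs r was 0.0686 and 0.0507. These points share a library and a fixed depth, which limits the UMIs left for other genes, and the values are a description.

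Since p53 targets differ strongly between the libraries, cells were placed in bins by their thinned UMIs of a p53 target list, without Rps27l and Bax. In both libraries, the summed member UMIs were lower in bins with more p53 target UMIs. The median was 71, 69, 66 and 63 in DMSO cells with 0 to 2, 3 to 5, 6 to 10 and 11 to 20 p53 target UMIs (7349, 5869, 2556 and 345 cells). It was 72, 70, 66 and 61 in dTAG13 cells of the same bins (156, 911, 3882 and 5301 cells) and 54 in 565 dTAG13 cells with 21 or more. Much of this came from Ncl and Npm1: without them the medians were 23, 23, 23 and 22 in the DMSO bins and 25, 24, 23, 22 and 20 in the dTAG13 bins. Within the same bin of p53 target UMIs the libraries differed by at most 2 UMIs in either median. The bins did not make p53 target levels equal, as the summed CPM of these targets was higher with dTAG13 in each shared bin. It was 421, 927, 1631 and 2811 CPM in the DMSO bins and 896, 1491, 2293 and 3445 CPM in the same dTAG13 bins. Over all thinned cells the medians for DMSO and dTAG13 were 69 and 64 with Ncl and Npm1. Without these genes they were already equal, at 23 and 23. Small-subunit UMIs did not follow this: their mean was 2.51, 2.62, 2.76 and 3.0 in the DMSO bins. In the dTAG13 bins it was 3.21, 3.08, 3.18, 3.28 and 3.53, higher with dTAG13 in each of the 4 shared bins. Without Utp20 the means were 2.23, 2.28, 2.37 and 2.46 with DMSO and 2.77, 2.60, 2.63, 2.65 and 2.76 with dTAG13. The rise was then smaller with DMSO. With dTAG13 the means rose from the second bin on, but the last was no higher than that of the first bin, which held only 156 cells. The dTAG13 means stayed higher in each shared bin.

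**Figure D4:**
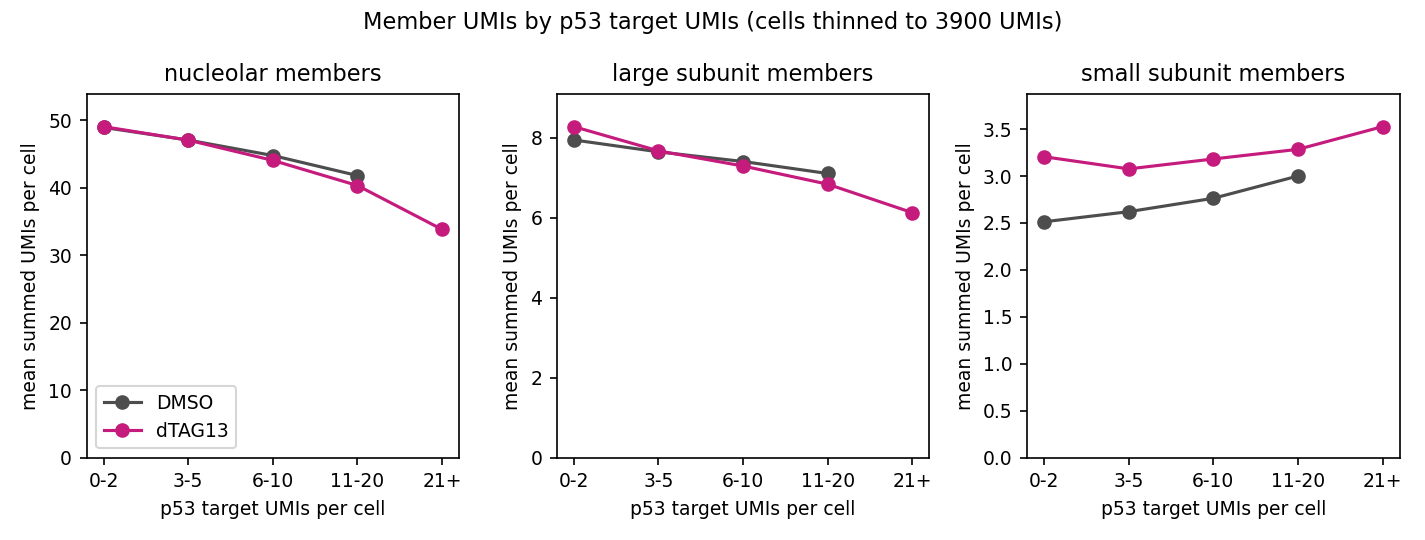
Mean summed UMIs per thinned cell (vertical) for 3 classes, by the cell's p53 target UMIs (horizontal); grey is DMSO and pink dTAG13, and DMSO has too few cells for the last bin. Nucleolar and large-subunit lines of the libraries nearly coincide and slope down, while the small-subunit line of dTAG13 lies above that of DMSO in all 4 shared bins.

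Single members followed either course. In both libraries, 10 of 36 members had a lower CPM at every step from few to many p53 target UMIs (7.27% of all genes) and 1, Utp20, a higher CPM at every step (11.7% of all genes). Counting error can break the order for genes with few UMIs: in the dTAG13 bin of 156 cells Ncl had 5571 UMIs and Polr1b 22. The shares of all genes are not matched for level. Utp20 was at 75, 87.2, 105 and 131 CPM over the DMSO bins and at 110, 123, 142, 165 and 185 CPM over the dTAG13 bins. Nolc1 ran the opposite way, at 479, 458, 428 and 380 CPM over the DMSO bins and 449, 407, 349, 300.2 and 242 CPM over the dTAG13 bins. Ncl was at 4204, 4010, 3771 and 3458 CPM and at 3971, 3764, 3451, 3196 and 2723 CPM. The others that were lower at every step were Npm1, Rrp9, Nhp2, Wdr74, Nip7, Mrto4, Rrp1b and Gnl3, of which 5 are large-subunit factors. Bins of cells are not replicates, and depth before thinning, phase and cell type may differ between them, which was not tested.

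Phase of the cell cycle was called from scores of S and of G2 and M transcripts. In cells called S (2126 DMSO and 882 dTAG13 cells) the small-subunit median was 0.27 and the large-subunit median 0.04. In cells called G2 or M (13866 and 8325 of the 16123 and 10815 thinned cells) they were 0.16 and -0.12. The G2 and M group is thus most of each library and largely repeats the comparison over all cells. The median of all members was 0.09 in S cells, near the 0.08 of all genes there, and -0.03 in G2 and M cells. Only 131 DMSO cells were called G1, against 1608 dTAG13 cells; there the medians were 0.56 and -0.20, with Nolc1 at a ratio of 0.608 (0.536 to 0.692), Rrp1b at 0.559 (0.455 to 0.692) and Utp20 at 1.74 (1.34 to 2.28). The calls depend on the method. A second rule called each cell by which of the lists had more UMIs, and it has no G1 class. With it, 701 DMSO and 680 dTAG13 cells were called S and all others G2 or M. The small-subunit and large-subunit medians were then 0.26 and -0.02 in S cells and 0.16 and -0.13 in G2 and M cells, so the large-subunit median in S cells changed sign. What part phase has in the class split was not tested.

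The cells were also clustered, with the members and the other 139 genes of the pathway left out of the variable genes. Most clusters came nearly whole from 1 library, so a cluster may be that library, and only 3 of 14 held at least 200 cells of each: cluster 2, led by histone genes such as H2ac18 (217 DMSO and 3267 dTAG13 cells), cluster 6, led by Neurod1 (242 and 2539 cells), and cluster 9, led by Ebf1 and Acta2 (1624 and 254 cells). Within these the median of all members was 0.08, 0.09 and 0.10, and that of all genes -0.01, 0.01 and 0.08. The small-subunit medians were 0.28, 0.17 and 0.15 and the large-subunit medians 0.03, -0.02 and 0.04, so the small-subunit median was the higher in all 3, by 0.25, 0.19 and 0.12. The Ncl ratio, 0.821 over all cells, was 0.965 (0.938 to 0.992), 1.02 (0.989 to 1.05) and 1.04 (1.02 to 1.06) there, so it was below 1 beyond counting error in cluster 2 alone of these 3. Nolc1 had ratios of 0.986 (0.902 to 1.08), 0.868 (0.800 to 0.944) and 1.07 (1.01 to 1.14). Utp20 had ratios of 1.33 (1.13 to 1.57), 1.28 (1.11 to 1.48) and 1.39 (1.21 to 1.59), smaller than the 1.81 over all cells.

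**Figure D5:**
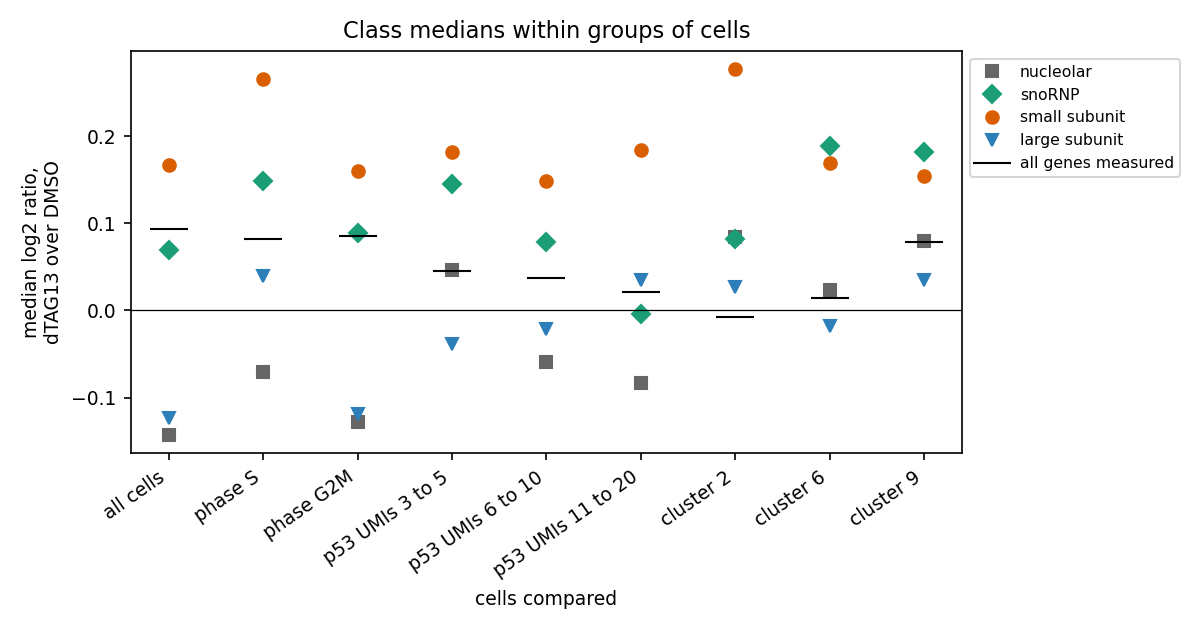
Median log2 ratio, dTAG13 over DMSO (vertical), of 4 classes and of all genes measured (black bars) over all kept cells and within each of 8 groups of cells (horizontal) with at least 200 cells of each library. Small-subunit medians lie between 0.15 and 0.28 and above the large-subunit medians in each group, while the nucleolar median runs from -0.14 over all cells to 0.08 in clusters 2 and 9. The G2 and M group holds most thinned cells of each library.

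The lowest nucleolar sums among the clusters of over 1000 cells were in the 2 made mostly of dTAG13 cells and led by Ccn1, Prph and Sct (cluster 5, 104 DMSO and 2806 dTAG13 cells) or by the keratin genes Krt19 and Krt18 (cluster 8, 62 and 1937 cells). Ncl was at 2798 and 2903 CPM there, Npm1 at 6441 and 6455 CPM and Nolc1 at 253 and 261 CPM. In the clusters 2 and 6, also mostly of dTAG13 cells, Ncl was at 3509 and 3621 CPM and Npm1 at 7634 and 7725 CPM. In the 6 clusters mostly of DMSO cells with over 1000 cells, Ncl lay between 3623 and 4404 CPM and Npm1 between 7336 and 8089 CPM. Small-subunit CPM was 813 in cluster 5 and 799 in cluster 8, slightly below the 827 and 854 of clusters 2 and 6, and 612 to 725 in these 6 clusters. Members were also followed over 8 groups with at least 200 cells of each library (2 phases, 3 bins of p53 target UMIs and 3 clusters). These groups share cells, and the G2 and M group holds most thinned cells. A ratio above 1 in all 8 was found for 11 members and for 17.8% of all genes. The 11 were Polr1a, Fbl, Nop58, Gar1, Wdr43, Utp20, Nop14, Bysl, Nob1, Nop2 and Ftsj3. Of these, Nop2 and Bysl had lowest ratios of 1.0005 and 1.004, close to 1, and Nop2 was at 0.992 over all cells. Nhp2 had a ratio below 1 in all 8, between 0.823 and 0.924, as did 12.0% of all genes. Ncl was below 1 in 6, Nolc1, Rrp1b, Mrto4, Nop16, Noc2l and Gnl3 in 7, and Npm1 in 2.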

How the data were processed

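The deposited matrices hold raw UMI counts per gene and barcode, and per the file headers Cell Ranger 8.0.1 produced them. The libraries were 10x 3′ ones, per the labels' protocols. Also named in the submitters' processing notes, without their use, are R 4.3.2, Seurat 5.0.1 and mm10; barcode filtering and the counting of intronic reads are not given in the sources used here. Kept cells had 500 or more genes and a mitochondrial share of 10% or less; no doublet was removed, and an alternative left out the 5% of cells with the most UMIs. Counts were summed by symbol over kept cells and given as CPM, with an exact Poisson interval. The interval of a ratio is the exact conditional binomial one, and that of a share the Clopper-Pearson one. With 1 library per group no test was run. A class or list median has no interval, and 3′ UMI levels are not compared between genes. Cells were thinned without replacement to 3900 UMIs; phases and clusters came from scanpy 1.11.5 and leidenalg 0.10.2 (2000 variable genes, 30 components, 15 neighbours, resolution 1). The intervals and the thinning were tested on simulated data. Members, lists, classes, bins and thresholds were chosen with earlier results of these data known. Named genes were the 3 highest and 3 lowest ratios per class (all of a class of 3; outside the members, with at least 10 CPM), plus Tex10, Mdm2, Trp53, Rpl5, Rpl11, Myc and Mycn; the other members are given by ratio. Alternatives were the median of ratios, other cell filters, thinning and other class assignments; 3 more were added after seeing the data.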

Additional observations from a re-analysis of the deposited data

How the results depend on the processing

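Scaling by the median of ratios was the setting that moved most values. With it the median log2 ratio was -0.20 over all members, -0.13 for Pol I, -0.30 for nucleolar, -0.084 for snoRNP, 0.013 for small-subunit and -0.28 for large-subunit members and -0.17 for the other genes of the pathway; by 1.2-fold or more, 1 member was higher and 12 were lower, beside 21.9% and 28.8% of all genes. With Heatr1, Utp4 and Wdr43 counted as Pol I factors, the Pol I median was 0.15. Without cells called G1, an alternative added after seeing the data, the snoRNP median was 0.093 and 3 members were lower by 1.2-fold or more. The ratio of the median member UMIs per cell, dTAG13 over DMSO, was 0.928 at 3900 UMIs but 1.08 without thinning; without Ncl and Npm1 it was 1, and 0.933 at 2500 UMIs and 1.14 without thinning; before thinning the dTAG13 cells were deeper. Of 324 values of single members over 9 settings, 266 stayed within the counting interval and 58 left it. No member past 1.2-fold changed direction, but the median of ratios could not reverse one, as it shifts all log2 ratios by -0.153. Members closer to 1 did change direction with it: 16 had a ratio above 1 in the main setting and 8 with that scaling. No paired analysis was possible because each group is 1 library. The depth leaves small counting errors, but variation between embryoid body cultures was not measured.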
